A study of Mus musculus with 6 samples.

Results

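Microglial genes are described here in the vermis, the strip of cerebellum along the midline, of mice aged 8 weeks. A list of 37 genes known from microglia was matched by symbol to the 21927 rows of a gene expression table, and all 37 were found. The study compared LINE-1a mice, in which the retrotransposon LINE-1 is activated, with dCas mice, which served as controls, and the labels name each animal by these strain names alone. RNA sequencing of total RNA gave 3 LINE-1a libraries and 3 dCas libraries. How LINE-1 was activated, in which cells, and which alleles the dCas animals carry is not stated in the labels. Replicates are numbered 1 to 3 in each group with no litter or day named, and p-values measure only how these 6 libraries vary.

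Microglia are the resident macrophages of the brain. In the healthy adult brain they keep a homeostatic program of surface receptors that read ATP and ADP (P2ry12, P2ry13), the neuronal chemokine fractalkine (Cx3cr1) and the survival ligands CSF1 and IL-34 (Csf1r). They clear debris and synapses by phagocytosis, tag targets with complement C1q, and degrade what they take up in lysosomes. On damage or in disease they lower the homeostatic receptors and switch on a set that includes Cst7, Spp1, Itgax, Clec7a and Lpl. Full expression of that set in mice needs the receptor Trem2 and its partner Tyrobp. The vermis is bulk tissue, so fewer microglia and less RNA per microglial cell cannot be told apart.

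All values are normalized counts, that is, reads per gene divided by a size factor for each library, and ± marks the SD with n = 3 per group. The gene table held 23483158 to 27234058 reads in the LINE-1a libraries and 27894408 to 33445789 in the dCas libraries. Markers of the tissue were abundant in all 6: Pcp2, a Purkinje cell gene, ranged over 10837 to 19109 in LINE-1a and 16659 to 20644 in dCas libraries, and Gabra6, a receptor subunit of granule cells, over 14572 to 17492 in LINE-1a and 14599 to 15400.5 in dCas libraries. The 3 genes set as microglial markers, P2ry12, Tmem119 and Laptm5, were detected in every library. Y-linked transcripts marked the 3 dCas libraries and LINE-1a 3 as male and LINE-1a replicates 1 and 2 as female, so sex and group overlap. The libraries also differed in RNA of the choroid plexus, the tissue in the ventricle beneath the vermis that makes cerebrospinal fluid, with summed counts of 10 markers of 8502, 44184 and 159292 in LINE-1a 1 to 3 and 148513, 8233 and 7942 in dCas 1 to 3.

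Promoter letters are shown for Laptm5, the member with the largest fold change, and for P2ry12, C1qb and C1qc, which hold letters of the type bound by PU.1. PU.1, the product of the member Spi1, is a transcription factor that macrophages and microglia need to form. Each run covers 250 bases before to 50 after the start of the gene in RefSeq (GRCm38.p6), written 5′ to 3′ on the strand of the gene. Capitals mark AGGAAGT on either strand (AGGAAGT or, for the opposite strand, its reverse complement) and TATAAA on either strand.
Laptm5, chr4:130913066-130913365, plus strand: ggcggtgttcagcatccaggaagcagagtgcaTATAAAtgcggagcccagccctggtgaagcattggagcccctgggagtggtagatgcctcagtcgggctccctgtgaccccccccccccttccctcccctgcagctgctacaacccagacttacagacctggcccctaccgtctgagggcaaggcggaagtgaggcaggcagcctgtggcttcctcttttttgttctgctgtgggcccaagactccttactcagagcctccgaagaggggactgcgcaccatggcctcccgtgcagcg
P2ry12, chr3:59262936-59263235, minus strand: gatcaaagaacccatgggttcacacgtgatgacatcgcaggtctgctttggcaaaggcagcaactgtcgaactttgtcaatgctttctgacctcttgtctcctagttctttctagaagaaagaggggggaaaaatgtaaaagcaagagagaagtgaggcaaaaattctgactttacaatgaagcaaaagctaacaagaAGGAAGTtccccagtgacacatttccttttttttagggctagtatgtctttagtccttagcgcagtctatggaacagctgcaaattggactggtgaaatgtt
C1qb, chr4:136886151-136886450, minus strand: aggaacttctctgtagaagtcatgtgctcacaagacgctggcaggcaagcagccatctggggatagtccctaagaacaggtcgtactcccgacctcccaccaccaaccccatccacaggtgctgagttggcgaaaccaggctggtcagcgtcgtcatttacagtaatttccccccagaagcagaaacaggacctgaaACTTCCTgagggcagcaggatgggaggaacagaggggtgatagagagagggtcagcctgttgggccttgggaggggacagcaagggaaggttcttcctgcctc
C1qc, chr4:136892865-136893164, minus strand: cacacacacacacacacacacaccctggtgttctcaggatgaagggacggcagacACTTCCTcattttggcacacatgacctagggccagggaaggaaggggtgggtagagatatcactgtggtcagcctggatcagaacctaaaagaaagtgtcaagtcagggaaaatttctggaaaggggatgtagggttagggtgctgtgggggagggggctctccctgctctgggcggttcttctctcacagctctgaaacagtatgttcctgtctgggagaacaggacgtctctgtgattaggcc
The Laptm5 run held TATAAA 218 bases before the start and no AGGAAGT. Only the exact letters were searched, so near matches, of which the Laptm5 run holds some, were not counted. The P2ry12 run held AGGAAGT 52 bases before the start on the strand of the gene. The C1qb and C1qc runs held it on the opposite strand, 53 and 195 bases before the start. These distances count from the RefSeq start. In the GENCODE annotation Laptm5 starts at 130913125 and C1qc at 136893065, before the RefSeq start and nearer to the motif. P2ry12 starts there at 59262871 and C1qb at 136886187, after the RefSeq start, so the distances depend on the annotation. RefSeq promoters were found for 28 of the 37 members, with 35 promoters in all. AGGAAGT lay in 12 of these 35 (34.3%), belonging to 11 members, against 9.35% of all 32851 promoters in the table. TATAAA lay in 7 of the 35 (20%), against 13.6% of all. The motifs can share no more than a letter at their ends, and a match is a description of the letters, not of binding. The members with AGGAAGT, beside those shown, were Apbb1ip, Cst7, Ctss, Fcrls, Lyz2, Ptprc, Sall1 and Spp1, of which Ctss, Fcrls, Ptprc and Spp1 also had TATAAA.

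For most microglial genes the values of LINE-1a and dCas vermis overlapped, and the exception in size was Laptm5, which codes for a lysosomal membrane protein of blood and immune cells. Of the 37 members, 36 had a mean of at least 10 and were tested, and Itgax was not. Limma, fitted over all 15800 features of the table on log2(normalized count + 1), called 0 of the 36 at a Benjamini-Hochberg adjusted p under 0.05, where it called 0.146% of all features. EdgeR, run on the whole reads recovered from the values, called 0 members and 0.146% of all features. DESeq2, run on the same reads, called Laptm5 alone as higher, beside 0.917% of all features that it gave an adjusted p. At an unadjusted p under 0.05, limma had 1 member, Laptm5, against 15.3% of all features. In 22 of the 36 members (61.1%) the log2 fold change was above 0, against 52.9% of all features. The median was 0.058 over the members and 0.028 over all features.

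The values of LINE-1a and dCas libraries overlapped for nearly every member. In 2 of the 36 members, Laptm5 and Irf8, every LINE-1a library lay above every dCas library, against 9.88% of all features. In 0 of the 36 did every LINE-1a library lie below, against 12.3% of all features. The interval of the log2 fold change (95%, limma) held 0 for 35 of the 36 members. For 21 it lay within -1 and 1, which leaves out a doubling and a halving. For the other 15 a change of that size in at least 1 direction was not left out. The members were noisier than most rows: their median SD within groups was 0.411 on the log2 scale, against 0.254 over all features tested.

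**Figure D1:**
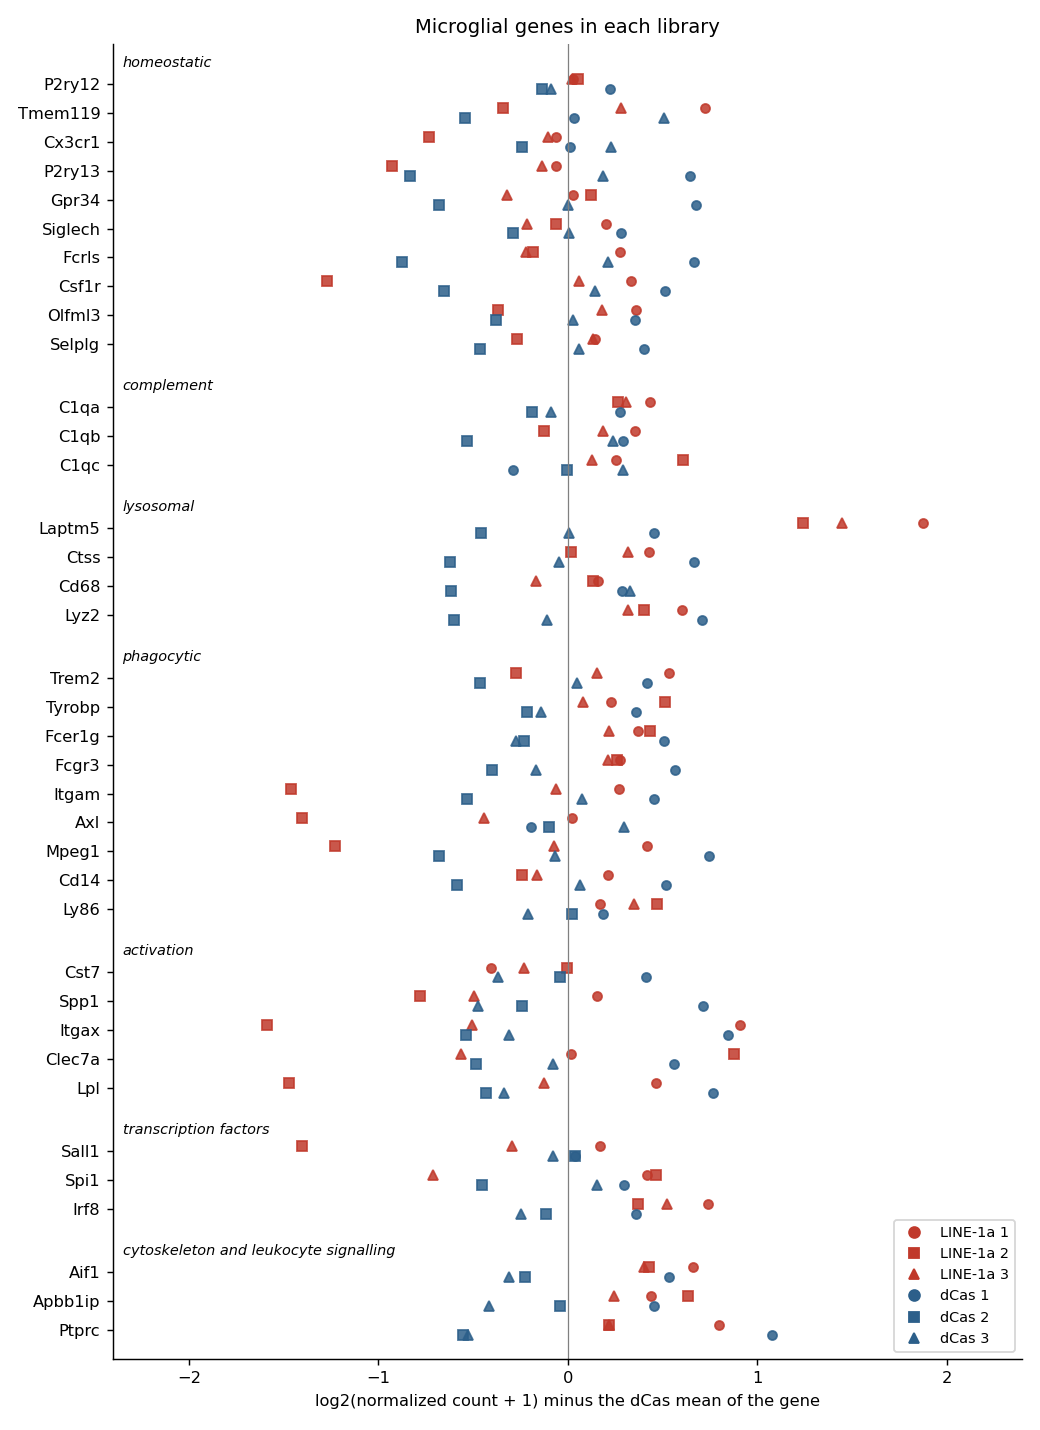
Values of the 37 microglial genes in every library, as log2(normalized count + 1) minus the mean of the 3 dCas libraries of that gene (x axis), with LINE-1a libraries in red above dCas libraries in blue and symbols for replicates 1 to 3. Laptm5 is the row whose 3 LINE-1a points all lie above 1, and in most other rows the colours overlap.

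The homeostatic receptors did not pass the test in either direction. P2ry12, the ADP receptor that guides microglial processes to injury, had 1080.3, 1099 and 1074 normalized counts in LINE-1a 1, 2 and 3, against 1236, 963 and 995 in dCas 1, 2 and 3. The LINE-1a values lay within the dCas range and close to each other, and the log2 fold change was 0.035 ± 0.15 (SE), with an interval of -0.29 to 0.36. Tmem119, a membrane protein that marks resident microglia, had 467, 222 and 343 in LINE-1a and 288, 193 and 401 in dCas libraries. The groups overlapped, with LINE-1a 1 highest and dCas 2 lowest, and the log2 fold change was 0.22 (interval -0.50 to 0.94). Cx3cr1, the fractalkine receptor, had 2666, 1677 and 2594 in LINE-1a and 2811, 2354 and 3259 in dCas libraries. LINE-1a 2 was lowest and the other LINE-1a libraries lay within the dCas range, with a log2 fold change of -0.30 (interval -0.77 to 0.17, limma adjusted p = 0.457). Without LINE-1a 2 it was -0.082, and in the male libraries alone -0.10. The 3 genes therefore gave log2 fold changes on either side of 0, all with intervals that hold 0.

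The other homeostatic members had log2 fold changes from -0.38 for P2ry13, a second ADP receptor, to 0.058 for Olfml3, a secreted olfactomedin-like protein. P2ry13 ranged over 79.8 to 146 in LINE-1a and 85.4 to 239.7 in dCas libraries. Csf1r, the receptor that microglia need to survive, ranged over 474 to 1444 in LINE-1a and 729 to 1634 in dCas libraries, the lowest value in each group being that of replicate 2. Its log2 fold change of -0.29 had an interval of -1.22 to 0.63. The lectin Siglech (-0.026), the Fc receptor-like Fcrls (-0.042), the lysophosphatidylserine receptor Gpr34 (-0.056) and the selectin ligand Selplg (0.0027) had log2 fold changes near 0. Over the 10 homeostatic genes the median log2 fold change was -0.034, with 4 above and 6 below 0. Giving every library the same total moved it to 0.08, and moved the median of all features from 0.03 to 0.15. P2ry12 and P2ry13 lie within Med12l, and Gpr34 within Cask, on the opposite strand, and whether reads were counted by strand is not stated. Med12l had 3322 ± 307 in LINE-1a and 2945 ± 351 in dCas libraries, and Cask 2352 ± 336 in LINE-1a and 2045 ± 215 in dCas libraries, so reads from these hosts could enter the counts of those members. Csf1r overlaps Hmgxb3 on the opposite strand in the same way, with 426 ± 73.2 in LINE-1a and 404 ± 58 in dCas libraries. Cx3cr1 overlaps annotated transcripts of its neighbours on both strands, Wdr48 and Ttc21a on the opposite and Csrnp1, Gorasp1 and Xirp1 on the same strand, so its reads too could be shared.

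The C1q genes, whose 3 chains form the recognition part of the first complement component, lie side by side on chromosome 4 (GRCm38, 136880129 to 136898803). None of them passed. C1qa had 536, 476 and 490.0 in LINE-1a 1, 2 and 3, against 481, 347 and 373 in dCas 1, 2 and 3. All LINE-1a values but that of LINE-1a 2 lay above the dCas range, and the log2 fold change was 0.33 ± 0.17 (interval -0.049 to 0.72, limma adjusted p = 0.348). C1qb had 963, 689 and 854 in LINE-1a and 922, 519 and 888 in dCas libraries. Its groups overlapped and dCas 2 was lowest (log2 fold change 0.14, interval -0.39 to 0.67). C1qc had 36.3, 46.8 and 33.2 in LINE-1a and 24.7, 30.2 and 37.3 in dCas libraries. LINE-1a 2 was the highest of the 6, so that the library low in Cx3cr1 and Csf1r was not low in C1qc, and the log2 fold change was 0.33 (interval -0.31 to 0.97). Per kilobase of annotated exon, C1qc had 20.1 ± 3.68 in LINE-1a and 15.9 ± 3.29 in dCas libraries, far below C1qa (481 ± 30.3 in LINE-1a and 385 ± 68.2 in dCas libraries) and C1qb (768 ± 127 in LINE-1a and 714 ± 205 in dCas libraries).

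Laptm5 was higher in every LINE-1a library than in any dCas library, and of the 3 tools DESeq2 called it. It had 2149, 1386 and 1598 normalized counts in LINE-1a 1, 2 and 3, against 802, 425 and 588 in dCas 1, 2 and 3. The lowest of the LINE-1a values was 1386 and the highest of the dCas values 802, and the means of 1711 ± 394 in LINE-1a and 605 ± 189 in dCas libraries differed 2.83-fold. The log2 fold change was 1.52 ± 0.24 (SE, interval 0.97 to 2.07), with adjusted p-values of 0.0625 in limma, 0.0769 in edgeR and 1.03e-05 in DESeq2. By p it ranked 31 of 15800 features, of which 23 passed in limma. In the male libraries alone, with LINE-1a 3 against the 3 dCas libraries, the log2 fold change was 1.45 (limma adjusted p = 0.307), with the lone LINE-1a library taken to vary like the others. Laptm5 lies on chromosome 4 (GRCm38, 130913125 to 130936141, plus strand) and no other annotated gene overlaps it. Among the 19 tested genes within 1 Mb of it limma and DESeq2 called 0, with log2 fold changes from -0.60 to 0.82, and the C1q genes lie 5.94 Mb away.

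The other lysosomal members did not pass. Ctss, the cathepsin of microglia and other antigen-presenting cells, had 1448, 1087 and 1340.2 in LINE-1a and 1708, 697 and 1041 in dCas libraries. The LINE-1a values lay inside the dCas range (log2 fold change 0.26, interval -0.38 to 0.90). Cd68, a lysosomal glycoprotein used to stain phagocytes, had 136, 133 and 108 in LINE-1a and 148, 78.8 and 153 in dCas libraries. Its means were 126 ± 15.3 in LINE-1a and 126 ± 41.4 in dCas libraries (log2 fold change 0.043, interval -0.58 to 0.67). Lyz2, lysozyme of myeloid cells, had 537, 468 and 442 in LINE-1a and 579.6, 233 and 328 in dCas libraries. The library dCas 1 was the highest and the other dCas libraries the lowest (log2 fold change 0.44, interval -0.21 to 1.10). Lyz2 has a near-identical copy, Lyz1, that could share its reads, and Lyz1 had 4.04, 4.84 and 3.02 in LINE-1a and 0, 0 and 1.33 in dCas libraries.

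**Figure D2:**
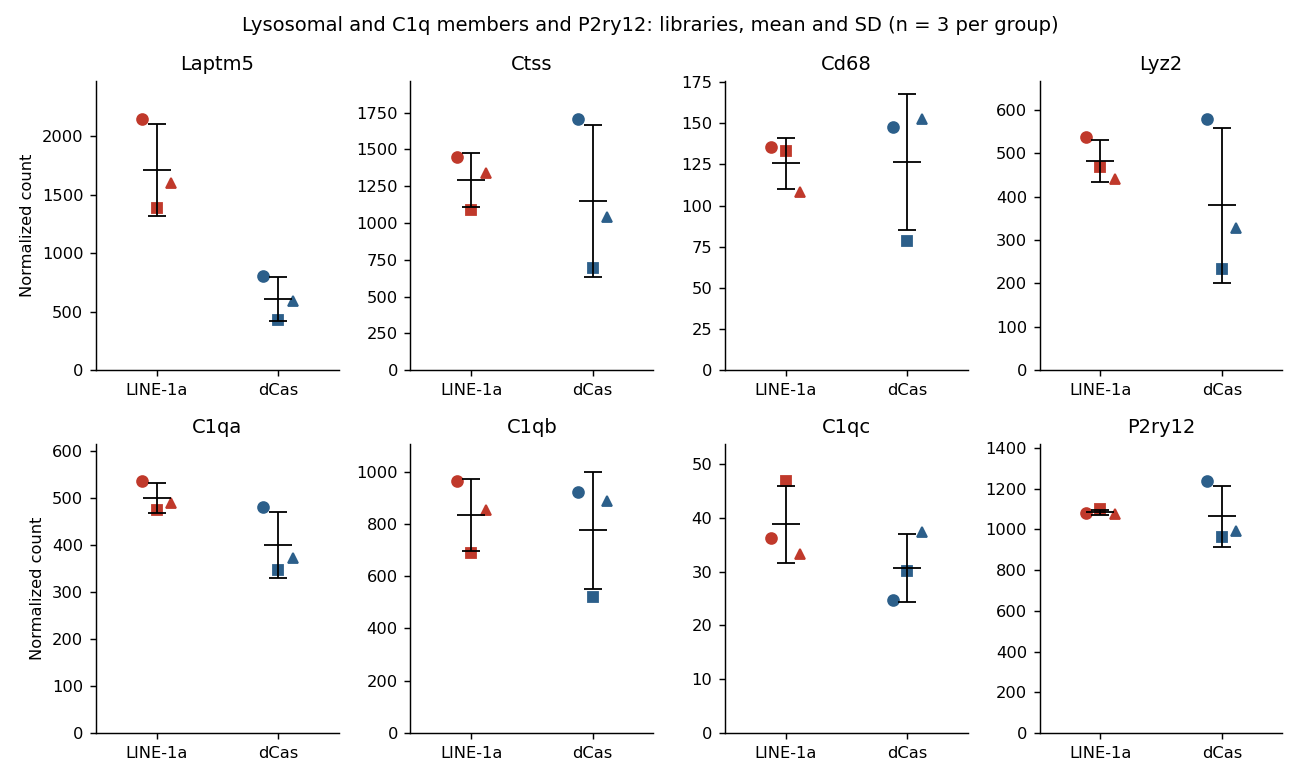
Normalized counts (y axis, from 0) of the lysosomal members, the C1q genes and P2ry12 in LINE-1a (left, red) and dCas libraries (right, blue), with symbols for replicates 1 to 3, a bar for the mean and whiskers for the SD (n = 3 per group). The groups are apart for Laptm5 and overlap in the other 7 panels.

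Within a library, Laptm5 was compared with the rest of the microglial genes. Relative to the dCas mean, the median log2 deviation of the other 36 members was 0.28, -0.035 and 0.042 in LINE-1a 1, 2 and 3, and 0.44, -0.44 and -0.057 in dCas 1, 2 and 3. Laptm5 itself was at 1.87, 1.24 and 1.45 in the LINE-1a and 0.45, -0.46 and 0.0069 in the dCas libraries. Laptm5 minus that median was 1.60, 1.28 and 1.41 in LINE-1a and 0.016, -0.018 and 0.064 in dCas libraries. Laptm5 thus rose and fell with the other members across the dCas libraries. Each gene is set to its own dCas mean, which puts the average dCas difference near 0. The height of Laptm5 above the others in LINE-1a libraries therefore restates its fold change. The order of the libraries within each group was the same for Laptm5 and for that median. The ratio of Laptm5 to P2ry12 counts was 1.99, 1.26 and 1.49 in LINE-1a and 0.648, 0.442 and 0.591 in dCas libraries. To Csf1r it was 1.49, 2.92 and 1.34 in LINE-1a and 0.491, 0.584 and 0.465 in dCas libraries, and to Ctss 1.48, 1.27 and 1.19 in LINE-1a and 0.469, 0.61 and 0.565 in dCas libraries. For each of these 3 partners the ratios of the 2 groups did not overlap. Laptm5 alone did not overlap either, so the ratios are not a separate result.

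**Figure D3:**
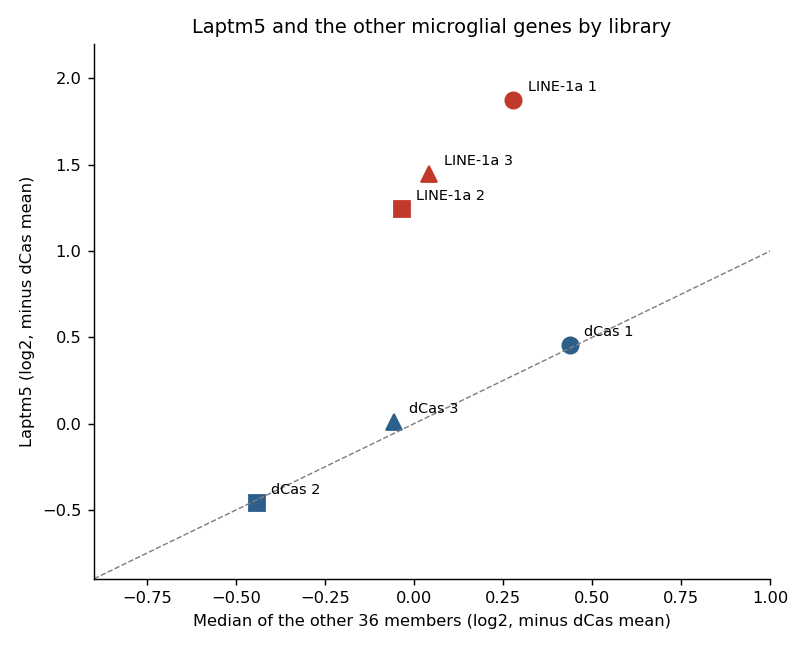
Laptm5 (y axis) against the median of the other 36 microglial genes (x axis) in each library, both as log2(normalized count + 1) minus the dCas mean, with LINE-1a libraries in red and dCas libraries in blue and a dashed line where both are equal. The dCas points lie on the line and the LINE-1a points lie 1.28 to 1.60 above it.

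Laptm5 is also made by other blood cells, so their markers are given beside it. Of 11 markers of border macrophages, the macrophages of meninges, vessels and choroid plexus, 10 were tested and 0 called, and their summed counts ran over 748 to 1010.1 in LINE-1a and 549 to 1009 in dCas libraries. The 3 of smallest p were Folr2, a folate receptor (31.2 ± 6.99 in LINE-1a and 16.2 ± 6.03 in dCas libraries), Ms4a7 (30.4 ± 6.05 in LINE-1a and 16.3 ± 6.46 in dCas libraries) and Stab1, a scavenger receptor (239 ± 50.1 in LINE-1a and 188 ± 18.3 in dCas libraries). Folr2 and Ms4a7 did not overlap between the groups, with a limma adjusted p of 0.325 each, which is 2 of the 10 tested (20%) against 9.88% of all features, while Mrc1 (114 ± 43.5 in LINE-1a and 119.9 ± 57.6 in dCas libraries), Cd163 and Pf4 overlapped. The 13 markers of monocytes and neutrophils summed to 143 to 166 in LINE-1a and 132 to 238 in dCas libraries, and the 12 lymphocyte markers in the table to 110.2 to 125 in LINE-1a and 112 to 155 in dCas libraries. Ccr2, which defines recruited monocytes, was low, at 4.03 to 14.5 in LINE-1a and 5.89 to 12.3 in dCas libraries. Cd3e of T cells was at 17 to 26.6 in LINE-1a and 23.6 to 40.1 in dCas libraries. The part of these cell types in the Laptm5 difference was not tested. The 10 choroid plexus markers had a median log2 fold change of 1.41 and the 5 red blood cell markers one of -0.18, with 0 called in either list.

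The phagocytic receptors and their adaptors did not pass. Trem2, the lipid receptor that drives the damage response of microglia, ranged over 152 to 266 in LINE-1a and 132 to 245 in dCas libraries (log2 fold change 0.14, interval -0.49 to 0.76). Its signalling partner Tyrobp ranged over 201 to 272 in LINE-1a and 163 to 244 in dCas libraries (0.27), and the adaptor of Fc receptors Fcer1g over 208 to 243 in LINE-1a and 148 to 255 in dCas libraries (0.34). For these 3 genes the LINE-1a range overlapped that of dCas. Fcgr3, an IgG receptor, was tight in LINE-1a at 312 to 326 and spread over 204 to 398 in dCas libraries (0.25). Ly86, the partner of Cd180 at the cell surface, had 159.9 to 198 in LINE-1a and 123 to 162 in dCas libraries (0.33). Cd14, the endotoxin co-receptor, ranged over 56.5 to 77.5 in LINE-1a and 44.2 to 96.3 in dCas libraries (-0.063).

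Axl, Itgam and Mpeg1 had their lowest value in LINE-1a 2. Axl, a receptor for phosphatidylserine bridging proteins that astrocytes and vessels also make, had 1214, 451 and 879.6 in LINE-1a 1, 2 and 3, against 1043, 1116 and 1466 in dCas 1, 2 and 3. Its log2 fold change of -0.61 ± 0.32 (interval -1.32 to 0.10) was the lowest of all members. Itgam, the integrin CD11b, had 147, 43.6 and 116 in LINE-1a and 167, 83.9 and 128 in dCas libraries (-0.42). Mpeg1, a pore-forming protein of phagosomes, had 284, 90.3 and 202 in LINE-1a and 358, 132 and 203 in dCas libraries (-0.29). Without that library the log2 fold change was -0.21 for Axl, 0.10 for Itgam and 0.17 for Mpeg1. Beside Axl, the median log2 fold change of 12 endothelial and mural markers was -0.52 (2 above 0, 0 called). In 4 of the 12 (33.3%) every LINE-1a library lay below every dCas library, against 12.3% of all features. In 2 (16.7%) every LINE-1a library lay above, against 9.88% of all features. Their median deviation from the dCas mean was 0.076, -0.88 and -0.53 in LINE-1a 1, 2 and 3. The part of these markers in the Axl value was not tested. Over the 9 phagocytic genes the median log2 fold change was 0.14, beside 0.33 over the 3 complement and -0.034 over the 10 homeostatic genes. Over the 4 lysosomal genes it was 0.35, a median that includes Laptm5, and the other lysosomal members had 0.043 to 0.44. Differences between these roles were not tested.

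Genes of the damage program were low or overlapped between the groups. Itgax, the integrin CD11c, had 13.7, 1.61 and 4.53 in LINE-1a and 13.1, 4.42 and 5.34 in dCas libraries, below the level set for testing. Clec7a, the receptor for fungal glucans, ranged over 8.31 to 24.2 in LINE-1a and 8.83 to 19.3 in dCas libraries (log2 fold change 0.11, interval -0.91 to 1.14). Cst7, an inhibitor of cathepsins, ranged over 26.6 to 35.5 in LINE-1a and 27.3 to 47.8 in dCas libraries (-0.21), and Lpl, lipoprotein lipase, over 11.3 to 46 in LINE-1a and 24.3 to 57 in dCas libraries (-0.38). None of these low genes was higher in LINE-1a vermis beyond the spread of the libraries. Spp1, osteopontin, which some neurons of the hindbrain also make, had 2475, 1296 and 1579 in LINE-1a and 3647, 1885 and 1606 in dCas libraries (-0.37, interval -1.10 to 0.35). Its highest value was that of dCas 1, which was also the highest of all 6 libraries for 18 of the 37 members.

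Of the transcription factors, Irf8 alone did not overlap between the groups. Irf8, which microglia need for their reactive genes, had 27.5, 21 and 23.4 in LINE-1a 1, 2 and 3, against 20.8, 14.7 and 13.3 in dCas 1, 2 and 3. The lowest LINE-1a value lay just above the highest dCas value, and the log2 fold change of 0.54 ± 0.31 (interval -0.16 to 1.25) did not pass (limma adjusted p = 0.381). Spi1 ranged over 9.06 to 21.8 in LINE-1a and 11 to 19.3 in dCas libraries (0.057). Sall1, the factor that keeps the microglial identity, had 132, 43.6 and 95.1 in LINE-1a and 120.2, 120.0 and 111 in dCas libraries (-0.51, interval -1.32 to 0.30), and was again low in LINE-1a 2, without which the log2 fold change was -0.062. Among the genes of cytoskeleton and leukocyte signalling, Aif1, the actin-bundling protein IBA1, ranged over 113 to 136 in LINE-1a and 68.7 to 124 in dCas libraries (0.50, interval -0.094 to 1.09). Apbb1ip, an adaptor of the small GTPase Rap1, ranged over 71 to 93.6 in LINE-1a and 44.7 to 82.5 in dCas libraries (0.44), and Ptprc, the leukocyte antigen CD45, over 71 to 107 in LINE-1a and 41.2 to 129 in dCas libraries (0.41). In these 3 genes dCas 1 lay within or above the LINE-1a values and the other dCas libraries below them.

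**Figure D4:**
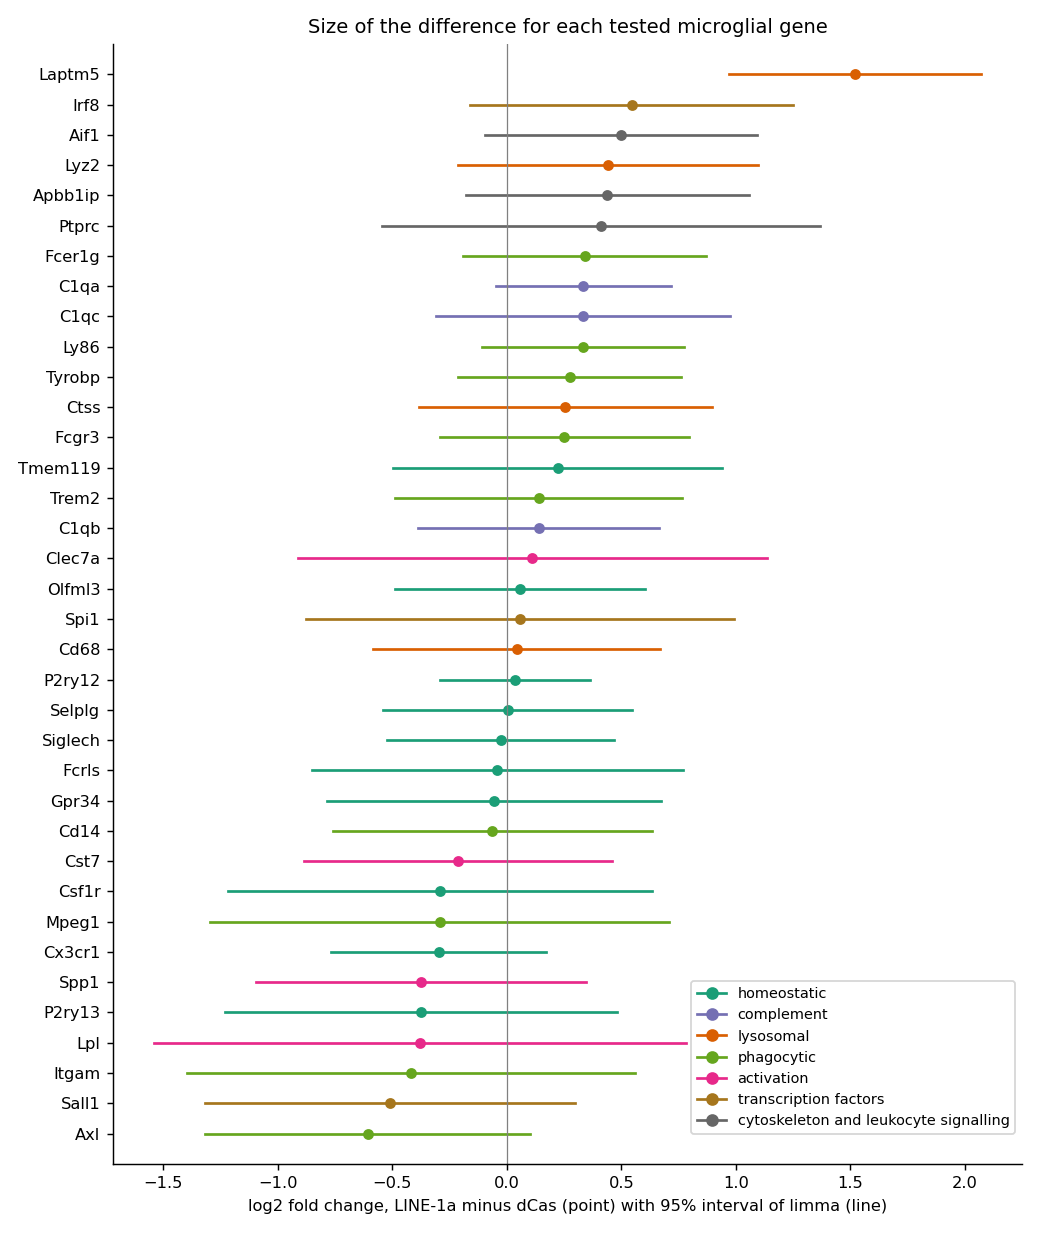
Log2 fold change (x axis, LINE-1a minus dCas) of the 36 tested microglial genes, ordered by size and coloured by role, with the 95% interval of limma as a line. The interval of Laptm5, 0.97 to 2.07, is the only one that does not hold 0.

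Per kilobase of annotated exon the members spanned from 1.38 for Itgax to 1082 for Spp1 in the LINE-1a libraries, as means of normalized counts per kilobase. The exon length is that of all annotated transcripts together, which lowers the level of genes with long rare transcripts. After Spp1 the highest levels were those of Ctss (951 ± 136 in LINE-1a and 846 ± 378 in dCas libraries), C1qb and Cx3cr1 (513 ± 122 in LINE-1a and 623 ± 100.3 in dCas libraries). P2ry12 had 426 ± 4.93 in LINE-1a and 418 ± 58.6 in dCas libraries. Laptm5 had 452 ± 104 in LINE-1a and 159.7 ± 49.8 in dCas libraries, which put it at place 6 of the 37 members in LINE-1a and at place 13 in dCas libraries. In LINE-1a libraries its level lay between those of C1qa and P2ry12 and did not differ from either beyond the SD. In dCas libraries it lay beside Fcgr3 (162 ± 59.7) and Tmem119 (127 ± 45.1), again within the SD. The lowest members after Itgax were Lpl, Irf8, Ptprc, Clec7a and Spi1, each under 7 in both groups.

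The members varied together across the libraries of a group. The library dCas 1 was the highest of its group for 32 of the 37 members and dCas 2 the lowest for 27. LINE-1a 1 was the highest LINE-1a library for 27 members, and LINE-1a 2 the lowest for 20. The border macrophage markers summed to 1010.1, 748 and 829.8 in LINE-1a 1, 2 and 3, and to 1009, 549 and 794 in dCas 1, 2 and 3. LINE-1a 3, with the most choroid plexus RNA, was the highest LINE-1a library for 0 members. The dCas library with the most such RNA, dCas 1, was the highest of its group for 32 members. The part of choroid plexus RNA in these shared differences was not tested. Without dCas 1 and LINE-1a 3, an alternative chosen after the data were seen, limma called 0 members and Laptm5 had a log2 fold change of 1.78 (limma adjusted p = 0.162). With replicate 1 of dCas left out alone, Laptm5 passed as higher (log2 fold change 1.75, limma adjusted p = 0.0167).

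In LINE-1a 2 the members with longer exons were more often low than those with shorter exons. Of the 18 members with more than 2638 bases of annotated exon, it was the lowest LINE-1a library in 13 and the highest in 3, and of the 19 members at or under that length the lowest in 7 and the highest in 7. The median deviation from the dCas mean was -0.32 over the longer and 0.12 over the shorter members in that library, against 0.39 and 0.25 in LINE-1a 1 and -0.0014 and 0.08 in LINE-1a 3. Over the 37 members the correlation (Pearson's r) between the deviation and log2 exon length was 0.25, -0.38 and 0.0091 in LINE-1a 1, 2 and 3. This is a correlation across genes that share a library, and over the 15213 tested features with a length it was 0.025, 0.0027 and 0.14. Csf1r, Axl, Itgam, Mpeg1 and Sall1 are among the long members lowest in LINE-1a 2. The long members highest in that library were Apbb1ip, Ly86 and Spi1. Of the short ones, Tyrobp and Fcer1g were highest in LINE-1a 2, Aif1 lay between the other LINE-1a libraries and C1qa was lowest. The dCas libraries differed by base composition, and the correlation with the GC share of the longest transcript was -0.53, 0.12 and 0.49 over the members in dCas 1, 2 and 3 and -0.27, 0.14 and 0.21 over all features. The part of length and GC in the members' differences between libraries or between groups was not tested.

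**Figure D5:**
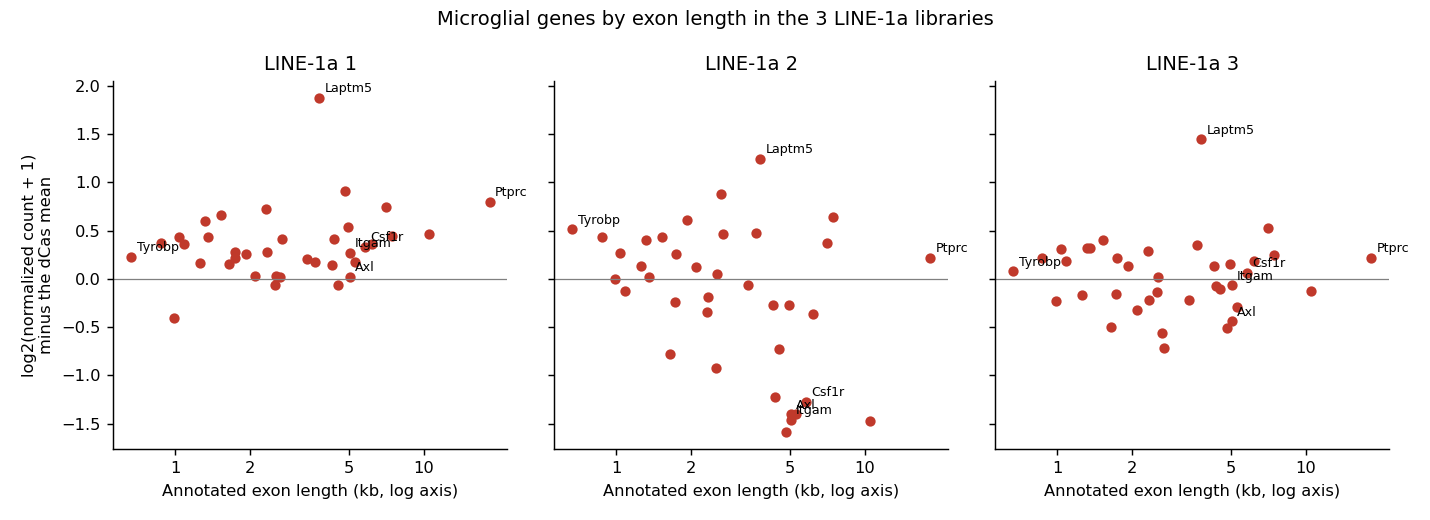
Deviation of each of the 37 microglial genes from its dCas mean (y axis, log2(normalized count + 1)) against annotated exon length in kilobases (x axis, log scale) in LINE-1a 1, 2 and 3, with 6 members named. In LINE-1a 2 the lowest points, Csf1r, Axl and Itgam among them, have about 5 kilobases or more of exon, and Laptm5 lies above 1 in all 3 panels.

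Genes that act with the members were tested as well, from a list of 28 ligands, receptors and signalling partners, of which 0 were called. Of the ligands of Csf1r, Csf1 had 133 ± 28.9 in LINE-1a and 160.0 ± 12.4 in dCas libraries, and Il34 439 ± 24.7 in LINE-1a and 457 ± 28.5 in dCas libraries. Fractalkine, Cx3cl1, had 1235 ± 302 in LINE-1a and 1586 ± 620.4 in dCas libraries. These ligands, given here because their receptors are members, did not pass the test, with log2 fold changes of -0.29, -0.059 and -0.31. The 3 of smallest p were C3, the central complement protein (13.3 ± 3.5 in LINE-1a and 26.5 ± 10.1 in dCas libraries), the receptor Tgfbr1 (202 ± 32.4 in LINE-1a and 151 ± 37.2 in dCas libraries) and its ligand Tgfb1 (19.7 ± 10.2 in LINE-1a and 9.65 ± 1.24 in dCas libraries), with limma adjusted p-values of 0.325, 0.358 and 0.36. In this list 15 log2 fold changes were above and 13 below 0, with a median of 0.042.

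A wider set of 38 genes enriched in microglia held 36 tested genes, of which 0 were called, 17 were above and 19 below 0, with a median log2 fold change of -0.024. The smallest p-values were those of Hk2, a hexokinase (181 ± 48.1 in LINE-1a and 303 ± 79.4 in dCas libraries), Cd180, a Toll-like receptor homologue that pairs with Ly86 (427 ± 104 in LINE-1a and 599 ± 42.3 in dCas libraries), and Hpgds, a prostaglandin D synthase (175 ± 47 in LINE-1a and 116 ± 11.8 in dCas libraries), each with a limma adjusted p of 0.325.

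Lysosomal genes that most cells use did not pass either. Of 28 genes 27 were tested and 0 called, with 8 whose LINE-1a libraries all lay below the dCas libraries (12.3% of all features did), 9 log2 fold changes above and 18 below 0, and a median of -0.11. Gaa, the acid alpha-glucosidase, had 6259.8, 1702 and 5177 in LINE-1a 1, 2 and 3, against 6988, 7757 and 9246 in dCas 1, 2 and 3 (log2 fold change -1.06, interval -1.99 to -0.13). Ctsl, a cathepsin, had 4283, 2647 and 3228 in LINE-1a and 4721, 4718 and 4717 in dCas libraries (-0.51), and Atp6v1a, a subunit of the proton pump, had 17513, 8688 and 15100.4 in LINE-1a and 20959.7, 21577 and 20618 in dCas libraries (-0.67). In these 3 genes every LINE-1a library lay below every dCas library, LINE-1a 2 lowest, and the limma adjusted p was 0.325 each. Of the relatives of Laptm5, which are made in many tissues, Laptm4a had 8709.6 ± 1396 in LINE-1a and 10469 ± 486 in dCas libraries (log2 fold change -0.28). Laptm4b had 1974 ± 190.0 in LINE-1a and 2018 ± 1103 in dCas libraries (0.12), and the difference between these genes and Laptm5 was not tested.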

How the data were processed

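RNA was purified from the vermis with a column kit for fibrous tissue and turned into NEBNext Ultra II libraries, per the labels' protocols. The authors deposited normalized counts, a signal in which each library's reads are divided by its own size factor. STAR 2.5.3a is among the tools in the submitters' processing notes, which also give DESeq2 and GRCm38. No source used here names the counter or says whether strand was used. All values were whole multiples of the smallest step of their library (100% within 0.001 reads), which gave back whole reads. Of the 21927 rows, 890 are repeat elements.

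Limma-trend 3.58.1 in R 4.3.3 was fitted over the 15800 features whose mean over all 6 libraries reached 10, on log2(normalized count + 1), as a two-sided test at a Benjamini-Hochberg adjusted p of 0.05. The recovered reads went into edgeR 4.0.16 and DESeq2 1.42.0 as alternatives. The pseudocount makes fold changes of low genes too small. The fit was tested on simulated data. Members, roles and lists were chosen with earlier results of these data known. All members were named. Those given per library were P2ry12, Tmem119, Cx3cr1, the lysosomal and complement members, members called by a tool or without overlap, and, chosen after their values were seen, Axl, Itgam, Mpeg1, Spp1, Itgax and Sall1. From each other list the text names up to 3 genes of smallest p, and other names were added afterwards. Exon lengths, positions and GC are from GENCODE M21 (GRCm38). Libraries of 1 group differed by a chi-square per degree of freedom of 28.6 to 144.5, beyond sampling noise. The table of ERV loci was not used, and that of repeats only for names.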

Additional observations from a re-analysis of the deposited data

How the results depend on the processing

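Limma called 23 features in all. That number was 142 in DESeq2, 36 with equal totals, 3 with sex as a covariate, 0 in the male libraries alone and 14 without dCas 1 and LINE-1a 3, an alternative added after the data were seen, and 11 to 40 when 1 library was left out (11 without LINE-1a 3, 40 without dCas 1, 14 without dCas 2 and 15 without dCas 3). The number of members called higher was 0, and 1, which was Laptm5, in DESeq2, with equal totals, with no filter on low values and with the replicate number as a block (limma adjusted p = 0.00857), and 0 to 1 when 1 library was left out (1 without dCas 1). The number called lower was 0 in every alternative. Whether equal replicate numbers pair the libraries is not known. Over all features the correlations of their deviations were -0.21, 0.14 and -0.09, beside -0.18 to 0.23 for unequal numbers. With 3 libraries per group these values cannot decide it. Among the 37 members, LINE-1a 1 was highest of its group for 27 and dCas 1 for 32, and LINE-1a 2 was lowest for 20 and dCas 2 for 27. Over its 19 alternatives Laptm5 had log2 fold changes of 1.29 to 1.78 and adjusted p-values of 1.03e-05 to 0.773, the last with sex as a covariate, which leaves LINE-1a 3 alone against the dCas libraries. In the male libraries alone its log2 fold change was 1.45.

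No direction of the 36 tested members was called by limma, and 19 of them changed sign in at least 1 alternative. These were Gpr34 (0.062), Siglech (0.092), Fcrls (0.076) and Cd14 (0.053) with equal totals, Selplg (-0.00057) with TMM, Selplg (-0.017) and Cd68 (-0.0054) in edgeR, Selplg (-0.043) and Cd68 (-0.030) in DESeq2, and Csf1r (0.061), Cd68 (-0.17), Clec7a (-0.56) and Spi1 (-0.71) with sex as a covariate, with the same values in the male libraries alone. Without dCas 1 and LINE-1a 3 they were Gpr34 (0.41), Siglech (0.21), Fcrls (0.38), Cd14 (0.25) and Spp1 (0.042). With 1 library left out the log2 fold changes spanned 0 for P2ry12 (-0.032 to 0.15), Tmem119 (-0.050 to 0.50), Gpr34 (-0.39 to 0.28), Siglech (-0.17 to 0.11), Fcrls (-0.48 to 0.29), Csf1r (-0.62 to 0.20), Olfml3 (-0.13 to 0.27), Selplg (-0.23 to 0.20), C1qb (-0.13 to 0.29), Ctss (-0.056 to 0.59), Cd68 (-0.27 to 0.21), Trem2 (-0.094 to 0.35), Itgam (-0.76 to 0.10), Mpeg1 (-0.65 to 0.17), Cd14 (-0.36 to 0.20), Clec7a (-0.27 to 0.45), Lpl (-0.80 to 0.17) and Spi1 (-0.17 to 0.44). Depth limits Itgax, Clec7a, Spi1, Irf8, Lpl, Cst7 and C1qc, which had means of under 40 normalized counts. The cause of these shifts was not tested.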
